A study of Mus musculus with 9 samples.

Results

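The genes examined here were 10 genes of MHC class I and class II antigen presentation, chosen by symbol from the 24411 genes of a count table of mouse liver RNA. They were the class I heavy chains H2-K1 and H2-D1, the class I light chain B2m, the peptide transporter subunits Tap1 and Tap2, the loading factor Tapbp, the class II chains H2-Aa, H2-Ab1 and H2-Eb1, and the invariant chain Cd74. Every member had a row in the table and passed the filter on low counts. Poly(A) RNA was sequenced from 9 livers of mice that were 3 months old, of the C57BL/6 background, with 3 livers in each of 3 groups. All 3 groups carried floxed Atg7 on both copies. The cont. group had no Cre. The Atg7-KO group had Alb-Cre, a Cre gene under the albumin promoter, which removes Atg7, and with it autophagy, from hepatocytes. Which other cells of the liver kept the gene was not measured here. The Atg7-KO;p62-S351A group, called S351A, had Alb-Cre and in addition carried p62 with a serine replaced by alanine (S351A) on both copies, a knock-in present in all cells that weakens the binding of KEAP1. In S351A replicates 2 and 3, title and genotype label differ in the p62 residue of 1 copy, and the title was followed. Livers with the p62 mutation and no Cre were not analysed here.

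MHC class I molecules stand on nearly all nucleated cells. The proteasome cuts cytosolic proteins into peptides, the TAP transporter carries the peptides into the endoplasmic reticulum, and tapasin and its partners help to load them onto a heavy chain paired with beta-2 microglobulin, for display to CD8+ T cells. MHC class II molecules are made mainly by dendritic cells, macrophages and B cells, and the invariant chain escorts them to endosomes, where they take up peptides for CD4+ T cells. In the normal liver, hepatocytes carry little class II, and Kupffer cells, dendritic cells and sinusoidal endothelium are the usual sources. Interferon gamma raises both sets, through NLRC5 for class I and CIITA for class II.

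Of the 10 members, 8 lie on chromosome 17 of mm10, between 33915899 (the start of Tapbp) and 35267499 (the end of H2-D1). The class II genes H2-Ab1 (chr17:34257689-34269419, + strand), H2-Aa (chr17:34282744-34287823, - strand) and H2-Eb1 (chr17:34305867-34316674, + strand) stand next to one another there. Tap1 (chr17:34187553-34197225) and Tap2 (chr17:34203527-34216321) lie before them, on the + strand, and H2-K1 (chr17:33996017-34000347, - strand) lies before those. B2m (chr2:122147686-122153083, + strand) and Cd74 (chr18:60803848-60812652, + strand) are on other chromosomes. All 10 are annotated as protein-coding genes.

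Library totals ranged from 713841 to 15426575 counts, and the 3 S351A libraries were the smallest of the 9, so that depth and the p62 mutation cannot be told apart. A count of 3 in a library, taken as its floor, was worth 0.269 to 3.73 CPM (counts scaled to a common library total by the TMM method of edgeR, the unit of every level given here). No member was at that floor in any library, and the lowest count of a member was 12, for H2-Eb1 in cont. replicate 1. Atg7, the deleted gene, was at 42.4 to 57.8 CPM in the cont. livers, at 28.8 ± 1.16 CPM (SD, n = 3) in those of Atg7-KO and at 21.8 to 24.8 CPM in those of S351A, with no overlap between cont. and the groups with Cre. By their Xist and Y-linked RNA, 2 of the 3 cont. livers were male, against 1 of 3 in Atg7-KO and 1 of 3 in S351A. Whole liver was measured, so that more cells of a type and more RNA per cell cannot be told apart.

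The RefSeq promoter table of GRCm38.p6 held a window for 7 of the 10 members, all but Tap2, H2-Ab1 and Cd74. The promoters of class I and class II genes are known for a shared module in which a CREB or ATF site and a CCAAT box, bound by NF-Y, stand close together. The 150 bases before the start site are shown for the pair of class II chains with a window, which differed most from cont. among the 7, and for H2-K1 and B2m, which did not pass the test. Capitals mark CCAAT (on the other strand it reads ATTGG), the core of the CREB and ATF site, TGACG (on the other strand it reads CGTCA), and GAAANNGAA, letters of the core of the interferon-stimulated response element. The windows are chr17:34287824-34287973 on the - strand, chr17:34305717-34305866 on the + strand, chr17:34000348-34000497 on the - strand and chr2:122147537-122147686 on the + strand.
H2-Aa: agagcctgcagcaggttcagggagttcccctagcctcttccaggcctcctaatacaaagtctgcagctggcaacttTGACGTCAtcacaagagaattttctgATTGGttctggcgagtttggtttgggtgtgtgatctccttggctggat
H2-Eb1: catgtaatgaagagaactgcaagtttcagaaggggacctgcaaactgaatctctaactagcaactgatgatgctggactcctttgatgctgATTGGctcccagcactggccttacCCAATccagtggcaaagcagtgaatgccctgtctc
H2-K1: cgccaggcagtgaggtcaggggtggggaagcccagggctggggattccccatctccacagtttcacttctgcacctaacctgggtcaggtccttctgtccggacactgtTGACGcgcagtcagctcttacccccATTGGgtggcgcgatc
B2m: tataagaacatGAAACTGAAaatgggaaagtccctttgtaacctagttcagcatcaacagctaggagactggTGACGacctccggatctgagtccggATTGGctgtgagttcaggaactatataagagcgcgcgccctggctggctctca

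Over the full windows of 250 bases before the start, CCAAT was found on either strand in 7 of the 7 members, and in 34.5% of the 27025 promoters of the table. TGACG was found in H2-K1, H2-D1, B2m, Tap1 and H2-Aa, and in 17.8% of all promoters. In H2-Aa its matches on the + and - strand overlap. GAAANNGAA was found in B2m alone among the members with a window, and in 7.16% of all promoters. The reverse order of its parts, GAA before GAAA, was not searched. The H2-K1 window printed above holds tttcacttc, which has that order on the other strand. The search therefore does not show which windows lack an interferon-stimulated response element. TGACNNNGC, the core of the antioxidant response element that NRF2 binds, was in H2-K1 alone and in 10.1% of all promoters. There it overlaps TGACG by 1 base. B2m and H2-K1, which were not called in any comparison, and H2-Aa, which was, all held TGACG as well as CCAAT. These matches are descriptions of the letters in these windows.

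Levels of different genes were compared as CPM per kilobase of exon. In cont., B2m stood at 3840.5 ± 224 CPM per kilobase, H2-K1 at 639 ± 106 and H2-D1 at 203 ± 47.8 (SD, n = 3 each), and these levels did not overlap. Cd74 at 20.8 to 31.0 and Tapbp at 18.4 to 30.8 came next and did not differ beyond their spread. Tap2, Tap1, H2-Eb1, H2-Ab1 and H2-Aa followed at 7.80, 7.36, 7.30, 5.78 and 4.79 CPM per kilobase, with ranges over the libraries that overlapped between neighbours. In Atg7-KO the order of the lower members was different. Cd74 stood at 153 ± 23.9 CPM per kilobase, above Tapbp at 78.1 ± 4.79 in every library. The class II chains H2-Eb1, H2-Aa and H2-Ab1 stood at 38.2, 29.5 and 23.3 CPM per kilobase, and each was above Tap2 at 12.7 and Tap1 at 12.1 in every library.

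Loss of Atg7 in hepatocytes was compared with cont. to ask how these genes stood in livers without autophagy. The class II genes showed the largest differences, with Cd74 6.17-fold and H2-Aa 5.84-fold higher in Atg7-KO, the loading factor Tapbp was 3.25-fold and the heavy chain H2-D1 2.37-fold higher, and the TAP subunits were about 1.6-fold higher. H2-K1 and B2m, the most abundant of the members, did not pass the test. In the quasi-likelihood test of edgeR, with adjustment by Benjamini-Hochberg over the 11199 genes tested (adjusted p under 0.05 and a fold above 1.5, which is what "called" means here), 8 of the 10 members passed as higher in Atg7-KO and 0 as lower. Of all genes tested, 19.9% were called higher and 18.1% lower. The median log2 fold change of the members was 1.47, against -0.03 for all genes. The libraries of Atg7-KO were all above those of cont. for 9 of the 10 members, as they were for 26.7% of all genes.

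**Figure D1:**
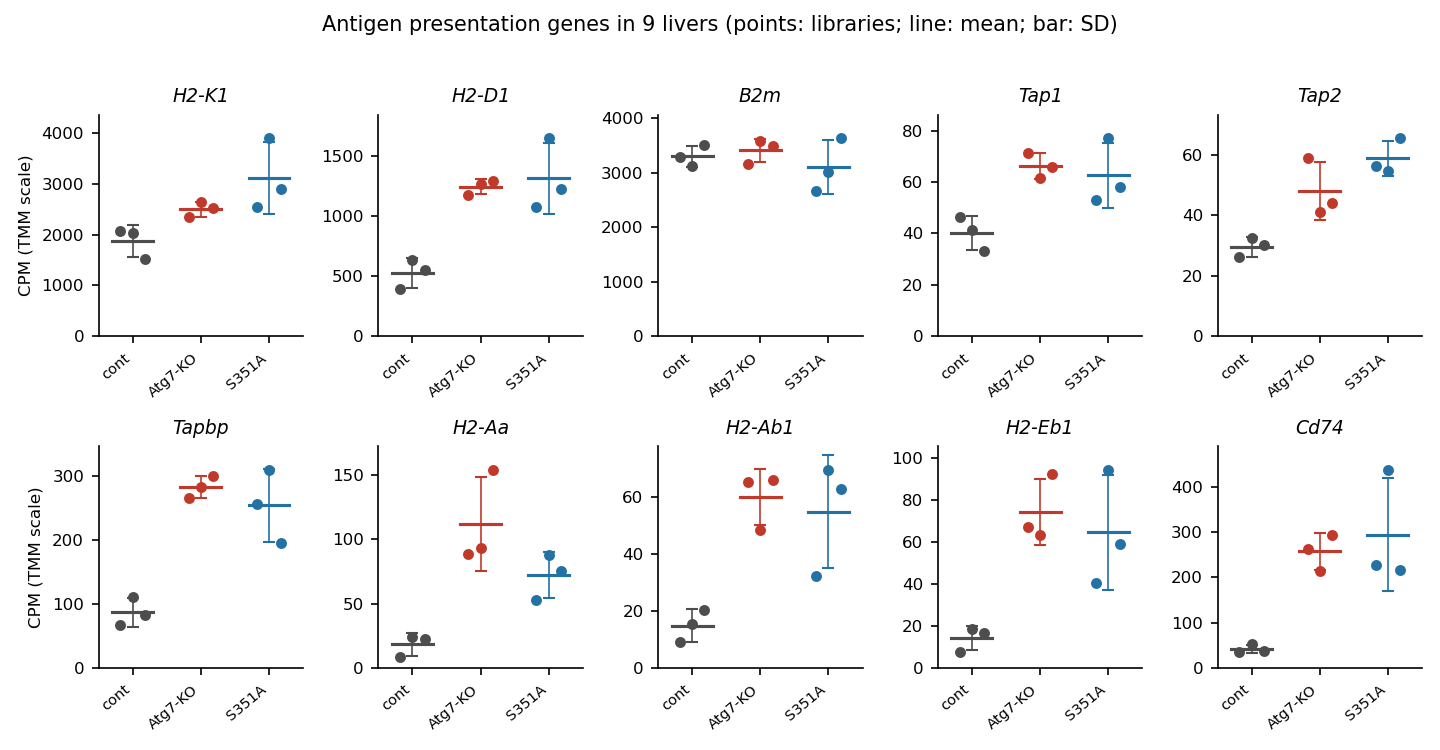
Level of each of the 10 antigen presentation genes in the 9 livers, in CPM on the TMM scale (y axis, starting at 0), by group (x axis), with a point for each library, a line at the mean and a bar of 1 SD either way. B2m lies between 2666 and 3633 CPM in all groups, while the Cd74 libraries of Atg7-KO and S351A, at 214 CPM or more, all lie above those of cont., at 52.1 CPM or less.

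Among the class I chains, H2-K1 was at 2075, 2038 and 1516 CPM in cont. replicates 1 to 3, at 2339.9, 2629.6 and 2522 CPM in Atg7-KO, and at 2534, 3890.5 and 2903 CPM in S351A. The cont. libraries were the lowest, but the log2 difference of Atg7-KO from cont., 0.41 ± 0.26 (SE), was not called (adjusted p = 0.225). H2-D1, the second heavy chain, was at 390.3, 633 and 548 CPM in the cont. livers, at 1174, 1266 and 1288 CPM with Atg7-KO, and at 1072, 1644 and 1219 CPM in S351A. No library with Cre reached down to the cont. libraries, and the log2 difference of Atg7-KO from cont. was 1.25 ± 0.26 (adjusted p = 0.00256). B2m, the light chain that every class I heavy chain needs to reach the surface, was at 3283, 3121 and 3504 CPM in the cont. livers, at 3167, 3579 and 3488 CPM with Atg7-KO, and at 2666, 3022 and 3633 CPM in S351A. Its groups overlapped throughout, and the log2 difference between Atg7-KO and cont. was 0.05, with a 95% interval from -0.47 to 0.56 (adjusted p = 0.901). Within a library, the summed level of both heavy chains per kilobase was 0.225, 0.259 and 0.179 times that of B2m in cont., 0.340, 0.333 and 0.335 times in Atg7-KO, and 0.412, 0.558 and 0.346 times in S351A. This ratio does not depend on the scaling between libraries, and it was higher in each library with Cre than in each cont. library. H2-K1 and H2-D1 share 3.10% and 5.56% of their distinct 75-base stretches, the read length, with other genes, most with H2-Q10 and H2-Q1, and their deposited counts were not whole in 9 of 9 libraries, so that part of their reads was divided among related genes.

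Tap1 and Tap2 encode the subunits of the peptide transporter of the endoplasmic reticulum. Tap1 was at 46.4, 41.2 and 33.3 CPM in the cont. livers, at 71.2, 61.4 and 65.9 CPM with Atg7-KO, and at 52.8, 77.0 and 58.0 CPM in S351A. Tap2 was at 26.1, 32.4 and 30.0 CPM in the cont. livers, at 58.9, 40.9 and 43.9 CPM with Atg7-KO, and at 56.3, 54.6 and 65.4 CPM in S351A. For both genes every library with Cre was above every cont. library. The log2 differences of Atg7-KO from cont. were 0.73 ± 0.20 for Tap1 (adjusted p = 0.0125) and 0.70 ± 0.20 for Tap2 (adjusted p = 0.0147). Without Atg7-KO replicate 1, neither was called (adjusted p = 0.0560 for Tap1 and 0.0970 for Tap2). Tapbp, which encodes tapasin, the bridge between TAP and the empty class I molecule, was at 66.7, 112 and 82.9 CPM in the cont. livers, at 266, 284 and 301 CPM with Atg7-KO, and at 257, 310.4 and 196 CPM in S351A. Its groups with Cre lay far above cont., and the log2 difference of Atg7-KO from cont. was 1.70 ± 0.25 (adjusted p = 0.000259). Exons of Tapbp overlap those of Gm19412 and Zbtb22, those of Tap2 overlap Gm15821 and Gm20496, and those of Tap1 overlap Psmb9. Of the 75-base stretches of Tapbp, 18.6% are shared with other genes, 668 of these 710 with Gm19412. Gm19412, Gm15821 and Gm20496 have no row in the count table, so that no counts were given to them there. Whether the counting used strand was not stated, and the level of Tapbp carries that uncertainty.

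The class II chains were low in cont. and rose together in Atg7-KO. H2-Aa, the alpha chain of I-A, was at 8.26, 23.9 and 22.4 CPM in the cont. livers, at 88.9, 93.0 and 154 CPM with Atg7-KO, and at 52.8, 88.2 and 75.3 CPM in S351A. H2-Ab1, the beta chain of I-A, was at 8.90, 15.5 and 20.2 CPM in the cont. livers, at 65.2, 48.5 and 65.9 CPM with Atg7-KO, and at 32.2, 69.5 and 62.9 CPM in S351A. H2-Eb1, the beta chain of I-E, was at 7.63, 18.3 and 16.7 CPM in the cont. livers, at 67.0, 63.2 and 92.4 CPM with Atg7-KO, and at 40.2, 94.4 and 59.2 CPM in S351A. In all 3 genes cont. replicate 1 was the lowest library and S351A replicate 1 the lowest of those with Cre, and no library with Cre overlapped cont. The log2 differences of Atg7-KO from cont. were 2.55 ± 0.35 for H2-Aa (adjusted p = 0.000160), 1.92 ± 0.31 for H2-Ab1 (adjusted p = 0.000475) and 2.31 ± 0.33 for H2-Eb1 (adjusted p = 0.000234). Cd74, the invariant chain that fills the class II groove until the endosome is reached, was at 35.0, 52.1 and 37.6 CPM in the cont. livers, at 263, 214 and 294 CPM with Atg7-KO, and at 227, 437 and 216 CPM in S351A. Its log2 difference of Atg7-KO from cont. was the largest among the members, 2.62 ± 0.31 (adjusted p = 5.69e-05), with an interval that overlapped those of the class II chains. Per kilobase, Cd74 was at 2.18, 1.43 and 1.00 times the sum of the 3 chains in cont., at 1.88, 1.68 and 1.54 times in Atg7-KO, and at 2.88, 2.63 and 1.72 times in S351A, so that the cont. libraries spanned the Atg7-KO ones. The alpha chain partner of H2-Eb1 in I-E, H2-Ea, is not expressed in the C57BL/6 strain. Its row in the table, H2-Ea-ps, held 0 ± 0 CPM in the cont. livers and 0.0773 ± 0.134 CPM in those of Atg7-KO (SD, n = 3 each).

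**Figure D2:**
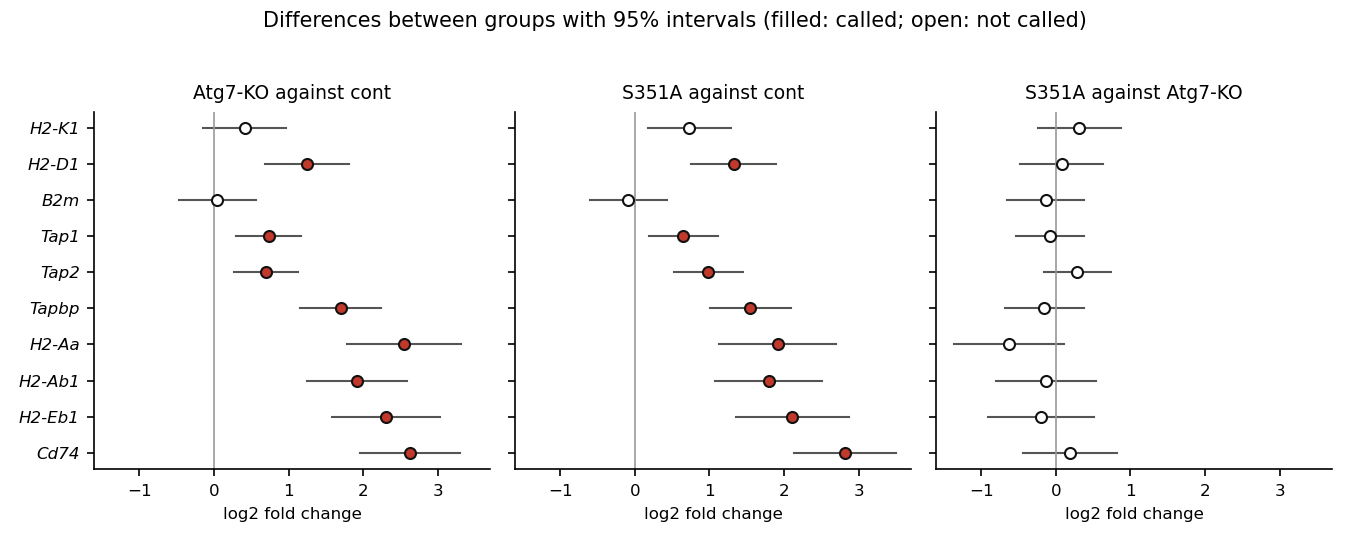
Log2 fold change of the 10 genes (x axis) in Atg7-KO against cont., S351A against cont. and S351A against Atg7-KO, with the 95% interval of edgeR's quasi-likelihood fit as a line; filled points were called and open points were not. In the first and second panels 8 of 10 genes are filled and all lie to the right of 0, and in the third every point is open and every interval crosses 0.

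The S351A livers were compared with Atg7-KO to ask what weaker KEAP1 binding by p62 did to these genes in livers without Atg7. No member was called in this comparison by edgeR's quasi-likelihood test, and 0 had an unadjusted p under 0.05, which 6.60% of all genes had. DESeq2 and limma-voom also called 0 members. Of all genes tested, 0% were called higher and 0.00893% lower. The median log2 fold change of the members was -0.11, against 0.01 for all genes. H2-Aa was the member whose groups stood apart, with every S351A library below every Atg7-KO library, as was the case for 9.23% of all genes. Of the 7 pan-leukocyte markers, 4 stood apart in the same way, with 0 called, 2 at an unadjusted p under 0.05 and a median of -0.60, and their part in the H2-Aa difference was not tested. Its log2 difference was -0.63 ± 0.34, with a 95% interval from -1.37 to 0.10 (adjusted p = 0.827). For the other class II genes the intervals ran from -0.80 to 0.54 for H2-Ab1, from -0.90 to 0.51 for H2-Eb1 and from -0.44 to 0.82 for Cd74. For the class I genes they ran from -0.24 to 0.87 for H2-K1, from -0.48 to 0.64 for H2-D1, from -0.65 to 0.38 for B2m, from -0.54 to 0.37 for Tap1, from -0.16 to 0.74 for Tap2 and from -0.68 to 0.37 for Tapbp. Differences within these intervals are compatible with the data. Within S351A, replicate 2 held the highest level of H2-K1, H2-D1, Tap1, Tapbp, H2-Aa, H2-Ab1, H2-Eb1 and Cd74.

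Against cont., the S351A livers showed the same 8 members higher as Atg7-KO did. Both comparisons share the cont. libraries, so that their values are given side by side and not as separate support. By edgeR's quasi-likelihood test 8 of 10 members were called higher and 0 lower in S351A, beside 15.6% of all genes called higher and 13.0% lower. The S351A libraries all lay above cont. for 9 of the 10 members and for 19.6% of all genes. The log2 differences of S351A from cont. were 2.82 ± 0.31 for Cd74, 2.11 ± 0.35 for H2-Eb1, 1.91 ± 0.36 for H2-Aa and 1.79 ± 0.33 for H2-Ab1. For the class I genes they were 1.54 ± 0.25 for Tapbp, 1.32 ± 0.26 for H2-D1, 0.98 ± 0.21 for Tap2 and 0.65 ± 0.21 for Tap1. The adjusted p of Cd74 was 7.98e-05 and that of Tap1, the weakest of the 8, was 0.0385. The call of Tap1 was lost without any 1 of 6 libraries, with an adjusted p from 0.0599 (without Atg7-KO replicate 1) to 0.194 (without S351A replicate 2). The others of these libraries were Atg7-KO replicates 2 and 3 (0.0636 and 0.0680) and cont. replicates 2 and 3 (0.0600 and 0.116). With sex as a covariate it was lost as well (adjusted p = 0.0602), as it was with no filter on low counts (0.118) and with the compared libraries alone (0.0735). H2-K1 was 1.66-fold higher in S351A than in cont., with no overlap between the groups, and its adjusted p was 0.0508, just outside the threshold. It was called without cont. replicate 1 (adjusted p = 0.0461), and DESeq2 (0.00538) and limma-voom (0.0288) called it too, so that both of these tools called 9 members. B2m differed from cont. by -0.09, with a 95% interval from -0.60 to 0.43 (adjusted p = 0.817).

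The class I members are a few of a large family. Of 27 listed class I heavy chains and relatives other than the members, 18 were tested. In Atg7-KO against cont. 9 were called higher and 3 lower, beside 19.9% and 18.1% of all genes, so that the share called lower was not above that of all genes. The median log2 fold change of the 18 was 1.13. By the rule for naming, the 5 with the largest changes are given. H2-M2, a heavy chain of the M region, was at 0, 1.76 and 0 CPM in the cont. livers, at 10.7, 13.6 and 26.1 CPM with Atg7-KO, and at 20.7, 80.7 and 8.64 CPM in S351A. The cont. libraries thus held 5 reads of it between them, and its fitted fold is not given. H2-Q1 rose from 7.12 ± 2.14 CPM in the cont. livers to 89.2 ± 15.1 CPM with Atg7-KO, a log2 difference of 3.76 (adjusted p = 2.69e-06), and was at 67.6 ± 12.6 CPM in S351A. Of the T region genes, H2-T10 rose by 2.75, H2-T9 by 2.65 and H2-T22 by 2.49 on the log2 scale. H2-T9 was the most abundant of these, at 124 ± 31.8 CPM in the cont. livers and 782 ± 104 CPM in those of Atg7-KO. The T region genes are close copies of one another, and the division of reads among them is uncertain. H2-T22 was not called without Atg7-KO replicate 2 (adjusted p = 0.0981). H2-Q10, a secreted class I chain that the liver makes, was among the 3 called lower and is named after its values were seen. It was at 2484 ± 374 CPM in the cont. livers, at 1151 ± 36.1 CPM in those of Atg7-KO and at 1379 ± 143 CPM in those of S351A. Under total library size 0 of the 3 were called lower in Atg7-KO against cont., with an adjusted p of 0.0542 for H2-Q10, 0.0508 for Cd1d1 and 0.310 for Azgp1. In S351A against cont. neither H2-Q10 (0.237) nor Cd1d1 (0.108) was called under total library size. With the compared libraries alone they were not called there either (0.102 and 0.0572). Azgp1 was also not called without any 1 of the Atg7-KO libraries (adjusted p from 0.0539 to 0.0658). Mr1, among the 9 called higher, was not called by DESeq2 (adjusted p = 0.0639) or without any 1 library other than Atg7-KO replicate 3 (0.0502 to 0.363). Cd1d1, Azgp1 and Mr1 are named after their values were seen. In S351A against cont. 7 of the 18 were called higher and 2 lower, beside 15.6% and 13.0% of all genes. The share called lower was again not above that of all genes. Without S351A replicate 2, H2-T22 was not called there (adjusted p = 0.0752). Nor were the 2 called lower, H2-Q10 (0.0654) and Cd1d1 (0.0513). In S351A against Atg7-KO 0 of the 18 were called (0 with an unadjusted p under 0.05, and 0 by DESeq2 or limma-voom).

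Of 11 genes of class I peptide supply and loading, in Atg7-KO against cont. 4 were called higher and 2 lower, beside 19.9% and 18.1% of all genes, with a median of 0.34, so that the share called lower is that of all genes. Psmb8 and Psmb9, subunits of the immunoproteasome, differed by 1.29 (adjusted p = 0.00115) and 0.92 (adjusted p = 0.00524), and Psme1, a subunit of the PA28 proteasome activator, by 1.02 (adjusted p = 0.00360). Nlrc5, the activator of class I genes, was at 26.1, 62.7 and 61.0 CPM in cont. and at 106, 85.8 and 99.3 CPM in Atg7-KO, a log2 difference of 0.93 (adjusted p = 0.0224). Nlrc5 was not called without Atg7-KO replicate 1 (adjusted p = 0.0773) or replicate 3 (0.0675). The 2 called lower were chaperones. Calr, encoding calreticulin, fell from 1277 ± 174 CPM in the cont. livers to 499 ± 45.3 CPM in those of Atg7-KO, a log2 difference of -1.35 (adjusted p = 0.000736), and Pdia3, encoding ERp57, differed by -0.91 (adjusted p = 0.0101). Pdia3 was not called without Atg7-KO replicate 2 (adjusted p = 0.0522), under total library size (-0.35, adjusted p = 0.215) or without the 20 genes with most counts in the library size (-0.55, adjusted p = 0.0814). Canx, encoding calnexin, another chaperone of the list, was not called (-0.10, adjusted p = 0.810) and is named after its values were seen. Calreticulin and ERp57 serve glycoprotein folding in general as well as class I loading. In S351A against cont. 3 of the 11 were called higher and 2 lower, beside 15.6% and 13.0% of all genes. Without S351A replicate 2 these calls came to 2 higher and 1 lower, with Psme1 (adjusted p = 0.0831) and Pdia3 (0.0586) no longer called. Under total library size neither Calr (adjusted p = 0.160) nor Pdia3 (0.221) was called there. In S351A against Atg7-KO 0 of the 11 were called (0 with an unadjusted p under 0.05, and 0 by DESeq2 or limma-voom).

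Of 17 listed partners of class II, 10 were tested. In Atg7-KO against cont. 7 were called higher and 1 lower, beside 19.9% and 18.1% of all genes, so that the share called lower was not above that of all genes. The median of the 10 was 1.23. H2-DMa and H2-DMb1, the chains of the DM molecule that exchanges the invariant chain remnant for peptide, differed by 2.65 (adjusted p = 0.000114) and 1.95 (adjusted p = 0.000460). Ctss, encoding the cathepsin that trims the invariant chain, differed by 1.96, and the lysosomal enzymes Lgmn and Ifi30, which prepare antigens, by 1.20 and 1.07. Ciita, the activator of class II genes, was at 3.18, 0.704 and 1.52 CPM in the cont. livers, at 6.50, 7.90 and 7.78 CPM with Atg7-KO, and at 6.89, 17.4 and 4.94 CPM in S351A. Its groups with Cre did not overlap cont., its log2 difference of Atg7-KO from cont. was 2.18 (adjusted p = 0.00520), and the levels rest on 2 to 28 reads per library. H2-Ob, a chain of the DO molecule that restrains DM, differed by 1.27 and was not called without cont. replicate 3 (adjusted p = 0.0845) or without any 1 of the Atg7-KO libraries (0.0604 to 0.0754). Rfxank, a subunit of the RFX complex that binds class II promoters, was the one called lower and fell by 1.30 on the log2 scale (adjusted p = 0.000391). In S351A against cont. 5 were called higher and 1 lower, beside 15.6% and 13.0% of all genes. Without S351A replicate 2, Ciita (adjusted p = 0.0646) and Rfxank (0.0688) were no longer called there. Without S351A replicate 1, Ctss (adjusted p = 0.0601) and Rfxank (0.0682) were not, and without replicate 3 Ctss was not (0.0750). Under total library size Rfxank was at -0.24 there (adjusted p = 0.445). In S351A against Atg7-KO 0 were called, 2 had an unadjusted p under 0.05, and DESeq2 and limma-voom called 0.

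**Figure D3:**
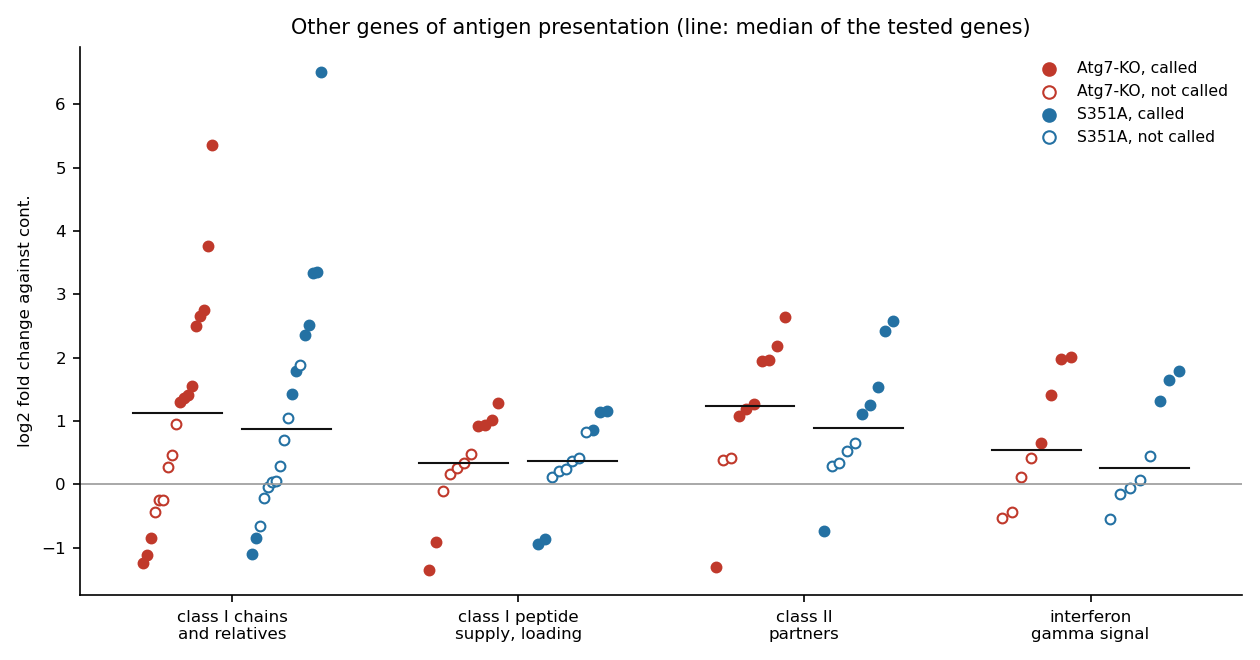
Log2 fold change against cont. (y axis) of the tested genes of 4 lists, in Atg7-KO (red) and S351A (blue), with a point for each gene, filled where called, and a line at the median of the list. In Atg7-KO the medians are 1.13, 0.34, 1.23 and 0.54 from left to right.

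Of 10 genes of the interferon gamma signal, 8 were tested. In Atg7-KO against cont. 4 were called higher and 0 lower, beside 19.9% and 18.1% of all genes, with a median of 0.54. Irf8, a factor of myeloid cells and interferon responses, differed by 2.01 (adjusted p = 2.99e-05), and the receptor chains Ifngr2 and Ifngr1 by 1.97 (adjusted p = 6.54e-05) and 1.41 (adjusted p = 0.00214). Irf1, the factor through which interferon gamma acts on many class I genes, was at 60.9 ± 12.5 CPM in the cont. livers and 45.4 ± 1.75 CPM in those of Atg7-KO and was not called (adjusted p = 0.231). Irf1 is named after its values were seen, as is Ifng, which held 0 to 3 reads per library, so that the level of the cytokine's own message could not be compared at this depth. In S351A against cont. 3 were called higher and 0 lower, beside 15.6% and 13.0% of all genes. In S351A against Atg7-KO 0 of the 8 were called (0 with an unadjusted p under 0.05, and 0 by DESeq2 or limma-voom).

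In Atg7-KO against cont., the tested markers of leukocytes, monocytes and dendritic cells were called higher with the members, all but 1. The lists of macrophages and Kupffer cells and of endothelium held calls in both directions. Of all genes, 19.9% were called higher and 18.1% lower. In S351A against cont., 5 of 7 leukocyte, 3 of 4 monocyte and 4 of 5 dendritic cell markers tested were called higher. There 5 of 11 macrophage and Kupffer cell markers and 1 of 7 endothelial markers were called higher and 0 lower, beside 15.6% and 13.0% of all genes. All 7 pan-leukocyte markers were called higher in Atg7-KO, and their summed level was 47.0 to 83.8 CPM in the cont. livers, 257 to 340.0 CPM with Atg7-KO and 206 to 268 CPM with S351A. The markers with most counts, Laptm5 and Coro1a, differed by 2.55 and 2.40 on the log2 scale. Of 5 listed monocyte markers 4 were tested, and all 4 were called higher in Atg7-KO. Ly6c2, with 0 to 6 reads per library, was not tested. The summed levels of the list were 12.7 to 19.7 CPM in the cont. livers, 93.3 to 152 CPM with Atg7-KO and 87.6 to 116 CPM with S351A. The 2 monocyte markers with most counts, Cx3cr1 and Lyz2, differed by 5.09 and 1.20 on the log2 scale. Dendritic cell markers were called higher in 4 of 5 (DESeq2 called 2), with sums of 11.4 to 28.2, 56.7 to 73.2 and 60.9 to 83.2 CPM in the same order. Of these Itgax, a marker that macrophages share, differed by 4.14 and Clec9a by 0.84, which was not called (adjusted p = 0.102). Macrophage and Kupffer cell markers were called higher in 6 and lower in 1 of 11 in Atg7-KO, with sums of 256 to 409, 470.0 to 609 and 390 to 426 CPM. Csf1r, of macrophages in general, differed by 1.42, and Clec4f, which defines Kupffer cells, by -0.16, which was not called (adjusted p = 0.671). Timd4, a marker of resident Kupffer cells named after its values were seen, was the one called lower (-1.92, adjusted p = 0.00814).

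Of the B cell markers 1 of 2 tested was called higher in Atg7-KO against cont. (Cd22, by 2.31), with sums of 8.33 to 16.2 CPM in the cont. livers, 25.3 to 30.2 CPM with Atg7-KO and 17.2 to 23.4 CPM with S351A. Of the T and NK cell markers Cd8a, tested alone, was called higher, from 0.412 ± 0.565 CPM in the cont. livers to 7.06 ± 2.13 CPM in those of Atg7-KO, and the sums were 4.75 to 11.6, 13.6 to 23.7 and 11.2 to 24.1 CPM. Cd4 was at 2.78 ± 3.71 and 3.51 ± 2.17 CPM and was not tested. Endothelial markers were called higher in 1 (Lyve1, by 2.03) and lower in 3 of 7, Stab2 among them (-1.03), beside 19.9% and 18.1% of all genes. The share called higher was not above that of all genes. Endothelial sums were 113 to 209.5, 137 to 167 and 118 to 157 CPM. Ductular cell markers were called higher in 5 of 5 tested, Spp1 by 4.37 and Sox9 by 2.92, with sums of 47.5 to 83.3 CPM in the cont. livers, 823 to 1211 CPM with Atg7-KO and 723 to 1204 CPM with S351A. Hepatocyte markers were called lower in 8 of 8, where Alb fell by 1.17 and Apoa2 fell by 3.08 on the log2 scale, with sums of 56604 to 126640.0 CPM in the cont. livers, 33528 to 40781 CPM with Atg7-KO and 32048 to 47711 CPM with S351A. The part of these cells in the levels of the members was not tested.

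**Figure D4:**
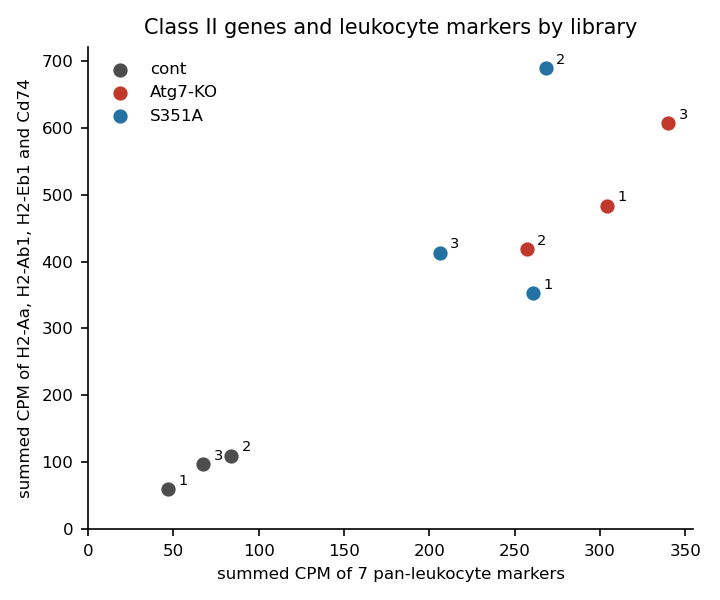
Summed CPM of H2-Aa, H2-Ab1, H2-Eb1 and Cd74 (y axis) against the summed CPM of 7 pan-leukocyte markers (x axis) in the 9 livers, coloured by group and numbered by replicate. The cont. livers lie at the lower left, and S351A replicate 2 lies highest, at 689 CPM of class II genes and 268 CPM of leukocyte markers.

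Set against the pan-leukocyte markers, the summed CPM of the 3 class II chains and Cd74 was 1.27, 1.31 and 1.44 times the marker sum in cont., 1.59, 1.63 and 1.78 times in Atg7-KO, and 1.35, 2.57 and 2.01 times in S351A. Every Atg7-KO library was above every cont. library, and S351A replicate 1 lay within cont. The class II sum itself was 59.8 to 110 CPM in the cont. livers, 419 to 606 CPM with Atg7-KO and 353 to 689 CPM with S351A. This is a description of 9 libraries, and no test was made of it. The part of leukocyte number in the class II levels was not tested.

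The tested genes whose log2 levels, centred on their own mean, followed those of a member most closely over the 9 libraries were sought among 8805 genes with a mean of at least 10 CPM. For H2-K1 they were Parp10, Hmha1, Ttc23, Eif2ak4 and Dtx3l, with root mean square differences from 0.121 to 0.150 on the log2 scale. For Cd74 they were Sp140, Ly6e, P3h3, Fxyd5 and Apobec3, with differences from 0.262 to 0.280.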

How the data were processed

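Poly(A) RNA of 9 livers was read as 75-base single-end reads. Per the submitters' processing notes and the study's methods, the authors used Trim Galore for trimming, STAR for mapping to mm10 and RSEM for quantification. The values deposited by them are expected counts, not scaled between libraries, and between 4.40% and 7.75% of them were not whole (tolerance 1e-06) in each library. They were rounded. Strand setting, annotation and tool versions were not given in the sources used here. Columns of the table were matched to samples by the genotype and number in the titles.

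In R 4.3.3, filterByExpr of edgeR 4.0.16 (minimum count 10, minimum total 15) kept 11199 genes, TMM factors scaled the libraries, and edgeR's quasi-likelihood F test was fitted to all 9 libraries with a term per group, with Benjamini-Hochberg adjustment over all genes. The thresholds are those of the study, and its tool, DESeq2 1.42.0, was an alternative, as was voom of limma 3.58.1. The SE is the log2 fold change over the square root of F, and the 95% intervals use 12.3 degrees of freedom. Floors (3 counts per library) and intervals of counts cover counting error only. The members, the lists of genes and the tests were chosen with earlier results of these data known. Named were the members, of the pathway lists the genes called in any comparison (in a list with more than 10, the 5 with the largest log2 fold change), of the marker lists the 2 genes with most counts, and for H2-K1 and Cd74 the 5 genes nearest in pattern. Some genes that this rule names are not reported here. The marker lists were pan-leukocyte, macrophage and Kupffer cell, monocyte, dendritic cell, B cell, T and NK cell, endothelium, ductular cell and hepatocyte. Positions and exons are from GENCODE M21, in which 23376 of the 24411 symbols and 10 of 10 members had a gene name. Nothing in the labels says that livers of a group share a litter or batch, and the p-values measure the spread between these livers.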

Additional observations from a re-analysis of the deposited data

How the results depend on the processing

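Over 20 alternatives for each of 30 values (10 members in 3 comparisons), 576 of 600 kept their side of the threshold, 14 lost a call, 10 gained one and 0 called values changed sign. Some values that were not called changed sign, such as B2m in S351A against cont. (-0.24 to 0.40) and Cd74 in S351A against Atg7-KO (-0.21 to 0.37). The count of members called stayed within 6 to 9 in Atg7-KO against cont., within 6 to 9 in S351A against cont. and at 0 in S351A against Atg7-KO, thresholds included. Calls moved for H2-K1, Tap1 and Tap2 alone. Leaving out 1 library gave 6 to 8 members in Atg7-KO against cont. and 7 to 9 in S351A against cont. Thinned to 713835 counts per library, Tap1 (adjusted p = 0.0983) and Tap2 (0.294) were not called in Atg7-KO against cont., nor was Tap1 (0.181) in S351A against cont. Under total library size the median of all genes moved by 0.55 in Atg7-KO and by 0.50 in S351A against cont., H2-K1 was called in Atg7-KO (0.93, adjusted p = 0.0116), B2m stood at 0.58, and Atg7 itself was no longer called (-0.20, and -0.38 without the 20 genes with most counts). All genes then split into 4312 higher and 796 lower in Atg7-KO against cont. (2226 and 2027 with TMM) and 3541 and 510 in S351A against cont. (1748 and 1460 with TMM), and without the 20 genes with most counts into 3437 and 1084, and 2753 and 728.

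Counts over all genes moved with the filter and the depth. They were 4253 in Atg7-KO against cont. (2504 with at least 10 counts in every library, 2591 thinned) and 3208 in S351A against cont. (1941, 2112, 1849 with the compared libraries alone, 2098 without S351A replicate 1). In S351A against Atg7-KO 1 gene was called, 98 with no filter, 40 by DESeq2, 10 with the compared libraries alone, 3 thinned, and 0 to 3 with 1 library left out. Of the class II partners, 4 (at least 10 counts in every library) or 5 (thinned) were called in Atg7-KO against cont., since fewer of them were tested or held enough counts.

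Livers of different groups share replicate numbers, but the labels tie these to no litter or batch. Deviations from the group means correlated with r from -0.0415 to 0.306 over 9 pairs of the same number. For 4 of 9 libraries the best correlation in both other groups was with the library of the same number. By their RNA, replicate 1 was male and replicate 2 female in each group. Whether the numbers pair the livers was not tested and cannot be told from these values. With the replicate number as a block, 8 members were called in Atg7-KO against cont., 0 in S351A against Atg7-KO and 9 in S351A against cont., H2-K1 being added (adjusted p = 0.0436). The S351A libraries hold 713841 to 792372 counts. Thinned to 713835 counts per library, 2591 genes were called in Atg7-KO against cont., 2112 in S351A against cont. and 3 in S351A against Atg7-KO. What deeper S351A libraries would show in the last comparison was not tested.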
